A study of Homo sapiens with 6 samples.

Results

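The chromatin around 7 genes of the lung adenocarcinoma and alveolar lineage was examined in NCI-H1703, an established line of lung squamous cell carcinoma. The genes encode 4 transcription factors (NKX2-1, FOXA1, FOXA2 and GATA6) and 3 products of mature alveolar cells (SFTPB, SFTPC and NAPSA). They were taken by name as genes of this lineage, and all 7 were found among the 20033 protein-coding genes of the annotation. The assay for transposase-accessible chromatin (ATAC-seq) inserts sequencing adapters into open DNA, and a stretch where fragments pile up is recorded as a peak. Of the 6 libraries, 3 came from cells after silencing of DLGAP1-AS2, a long non-coding RNA, and 3 from control cells. The labels name no time point, dose or genetic change beyond the silencing, and they do not state whether the 3 libraries of a group came from separate cultures, so every p-value measures the spread between these libraries, which may be technical. For each gene, a window was drawn from 20 kb before to 20 kb after its span in GRCh38, and every peak overlapping that window was taken.

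NKX2-1 (also called TTF-1) is the homeodomain factor that marks the thyroid and the distal lung epithelium, and pathologists use it to tell lung adenocarcinoma from squamous carcinoma. FOXA1 and FOXA2 are forkhead factors that can bind closed chromatin, and GATA6 is a zinc finger factor of endoderm and lung epithelium. In alveolar type II cells these factors drive the surfactant protein genes SFTPB and SFTPC, and NAPSA encodes napsin A, an aspartic protease that takes part in the maturation of surfactant protein B. Accessibility does not measure expression, and no RNA was measured in these libraries.

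The 6 lists differed in depth, which bears on every count below. Read totals are not given, so the most frequent background coverage of a list, recovered from peak heights and fold enrichments, stands in for depth. It was lowest in silenced replicate 3 (0.237) and highest in control replicate 2 (0.464), and lay between 0.369 and 0.402 in the other 4 libraries. Only 19.85% of peaks in silenced replicate 3 and 14.65% in control replicate 2 had that value, against 46.3% to 54.7% in the other 4, so it is a rougher guide there. The lowest peaks had a height (read here as overlapping fragments) of 2 in 5 libraries and of 3 in control replicate 2. The list of control replicate 2 was also the shortest, with 91346 peaks against up to 170882. Of its peaks, 2.46% had a height under 4, against 48.1% to 52.1% in the other lists, so weak peaks are mostly missing from it. To compare strength across lists, peaks were ranked within each list by the authors' fold enrichment over background, and the rank was expressed as a percentage of 91346, called the rank below. A small rank is near the top, and weak peaks of the longer lists can exceed 100%.

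The lineage fell into distinct patterns in the squamous line. NKX2-1 and GATA6 each had a peak at the gene's start in all 6 libraries. That of NKX2-1 had a rank of at most 12.1% in each, and that of GATA6 ranged from 11.9% to 40.5%. FOXA1 and NAPSA had peaks of lower height at or just inside the start, which reached the bases before it in 5 libraries. SFTPC had a shared peak only on the side of its neighbour BMP1, and SFTPB and FOXA2 had no peak within 1 kb of either end that recurred in a second library. A peak centred no more than 1 kb from an end of the gene span, called a gene-end peak below, was present in every library at 5 of the 7 genes, where 58.0% of all protein-coding genes had one. SFTPB had one in 2 libraries and FOXA2 in 1, and 0 of the 7 lacked one everywhere, against 16.5% of all protein-coding genes. With 7 genes, these shares do not set the lineage apart from genes in general.

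**Figure D1:**
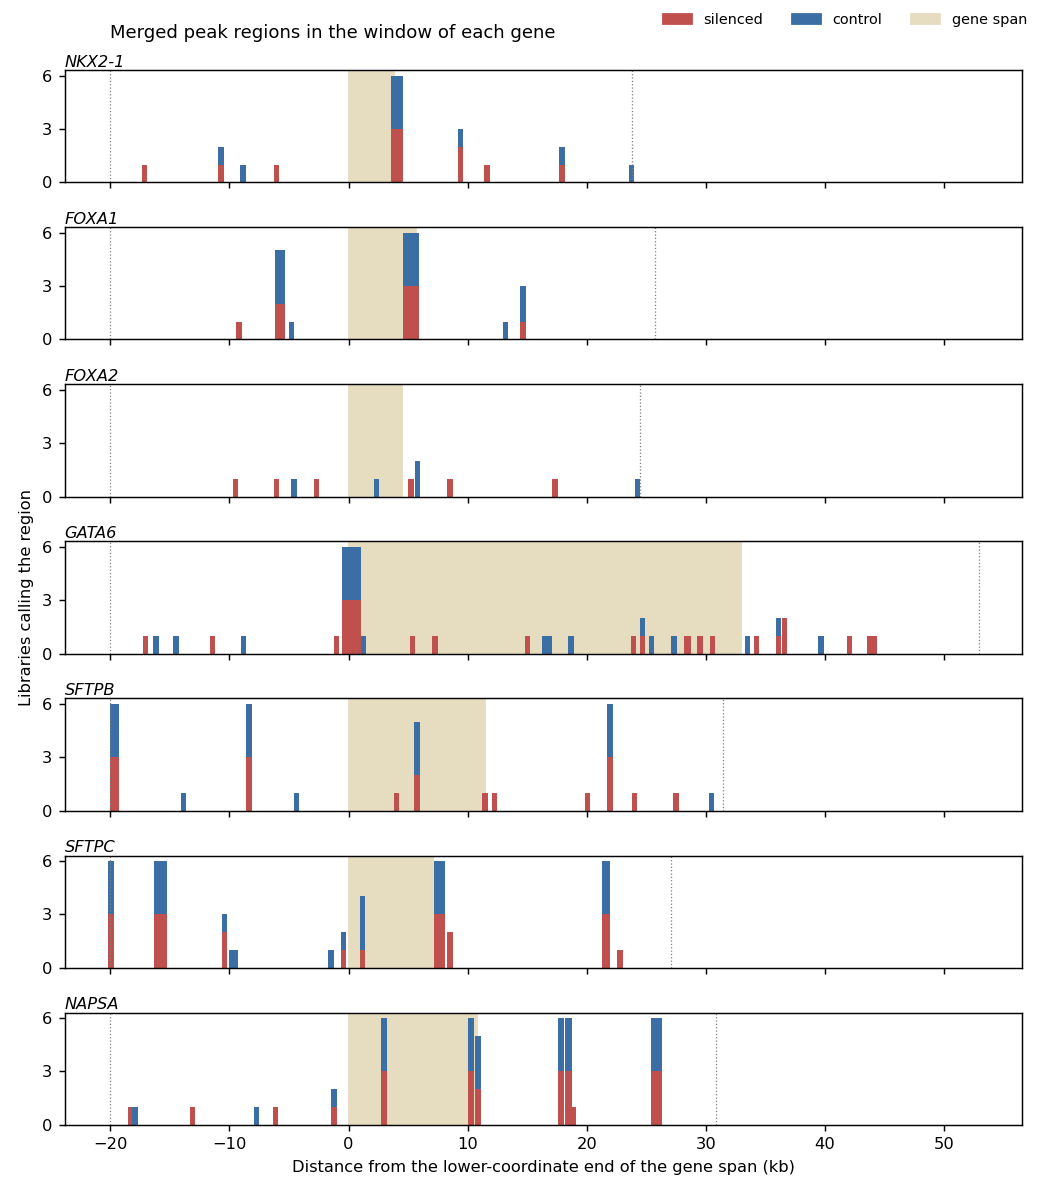
Regions made by merging overlapping peaks of the 6 lists, in the window of each gene. The x axis gives the distance in kb from the lower-coordinate end of the gene span (shaded), the dotted lines mark the window, the bar height is the number of libraries that called the region (silenced below, control above), and the narrowest regions are drawn wider than they are. NKX2-1, FOXA1 and GATA6 have 1 region each in all 6 libraries, FOXA2 has none, and SFTPB, SFTPC and NAPSA have 3, 4 and 5.

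Peaks of different lists that overlapped by 1 bp or more were merged, which gave 92 regions in the 7 windows. Only 1 library called 61 of them (66.3%), and all 6 called 15 (16.3%), where the shares over all 507440 merged regions were 74.1% and 7.35%. Among the 15 shared regions, 5 lay within 1 kb of an end of the lineage gene itself, 6 lay near an end of a neighbouring gene only, and 4 were near no end of any protein-coding gene or lncRNA. So, by count, most of the regions shared by all 6 libraries were not at the lineage genes' own ends. The same share for windows of other genes is not given here. GATA6, with the longest window (72.9 kb), had the most regions, 29, of which 25 were called once. FOXA2 had 10 regions, of which 9 were called once and 0 in all 6.

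NKX2-1 lies on chromosome 14 from 36516397 to 36520232 and is transcribed towards lower coordinates, as RefSeq's promoter table for GRCh38.p14 gives it. A region at 36519968 to 36520960 was called in all 6 libraries. In replicates 1, 2 and 3, the order used throughout, its heights were 32, 31 and 16 for silenced and 30, 36 and 31 for control cells, so silenced replicate 3, the library of lowest coverage, stood below the rest and the other 5 lay close together. The peak ranked at 8.18%, 10.5% and 12.1% in the silenced and at 12.1%, 11.3% and 10.9% in the control libraries, and the groups overlapped. Among the 37284 regions called in every library, its fold enrichment stood at the 73.6th percentile on average. The peak was wide and had 2 parts: in 4 libraries it was 1 interval of 860 to 911 bp, while silenced replicate 3 and control replicate 2 split it. In control replicate 2 the parts reached from -728 to -316 and from -163 to 198 bases relative to the annotated start.

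RefSeq lists a second start of NKX2-1 at 36519556, inside the gene, which is also the end of the span of the lncRNA SFTA3. No library called a peak over the 250 bases before it. The stretches before both starts are shown because the first was covered in all 6 libraries and the second in 0. Capitals mark any match, on either strand, to a set of short words. The forkhead factors were represented by TGTTTAC and by the related word TATTTAC. The GATA factors were represented by AGATAA and by the related word TGATAA. The NKX2-1 type was represented by CACTTGA and by the related word CACTCAA. For AP-1 the word was TGANTCA, and for the TEAD factors it was GGAATG. None of these words contains another. The sequences are RefSeq's, GRCh38.p14, minus strand, from chr14:36520233-36520482 and chr14:36519557-36519806.
NKX2-1 start 1: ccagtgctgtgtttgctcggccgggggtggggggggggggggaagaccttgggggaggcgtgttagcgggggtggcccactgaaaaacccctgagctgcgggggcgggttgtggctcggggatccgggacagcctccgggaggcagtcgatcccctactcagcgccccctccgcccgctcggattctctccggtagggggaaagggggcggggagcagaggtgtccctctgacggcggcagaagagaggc
NKX2-1 start 2: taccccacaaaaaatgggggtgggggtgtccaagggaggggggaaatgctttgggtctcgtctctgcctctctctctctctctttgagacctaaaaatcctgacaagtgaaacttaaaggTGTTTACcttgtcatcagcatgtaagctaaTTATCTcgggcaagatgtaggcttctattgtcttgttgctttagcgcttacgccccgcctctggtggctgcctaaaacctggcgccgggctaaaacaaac
The first holds none of the motif words. The second holds the forkhead word TGTTTAC, 130 to 124 bases before the start, and the GATA word AGATAA on the other strand, 100 to 95 bases before it. Over the 22198 promoter entries of protein-coding genes, 4.26% held a forkhead word and 11.2% a GATA word in the same 250 bases. A match is a string of letters and not evidence of binding. Apart from the start region, the NKX2-1 window held 8 regions, of which 5 were called once. The most frequent, at 36525566 to 36526003, had heights of 5 and 7 in the first silenced pair (replicates 1 and 2) and of 6 in control replicate 3.

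FOXA1 lies on the same chromosome from 37589552 to 37595249, also on the minus strand, and an end of the neighbouring gene TTC6 lies close to its start. Its shared region at 37594153 to 37595449 was much weaker than that of NKX2-1. The tallest peak within it had heights of 12, 15 and 5 in the silenced and 15, 14 and 13 in the control libraries, and silenced replicate 3 was again the lowest. The ranks were 28.6%, 24.8% and 39.1% against 19.6%, 29.0% and 30.1%, which overlap, and the region stood at the 35.8th percentile of the shared regions. The tallest signal was not at the start itself in every library. In 3 libraries (silenced replicates 1 and 2, control replicate 1) a separate peak 516 to 1035 or 527 to 1026 bases inside the gene was taller (12, 15 and 15) than the one over the start (10, 11 and 5). Control replicates 2 and 3 had 1 interval over both, of 1260 and 1214 bp.

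The 250 bases before the FOXA1 start (chr14:37595250-37595499, minus strand) are shown because the peak reached into them in 5 of the 6 libraries, silenced replicate 3 being the exception.
FOXA1: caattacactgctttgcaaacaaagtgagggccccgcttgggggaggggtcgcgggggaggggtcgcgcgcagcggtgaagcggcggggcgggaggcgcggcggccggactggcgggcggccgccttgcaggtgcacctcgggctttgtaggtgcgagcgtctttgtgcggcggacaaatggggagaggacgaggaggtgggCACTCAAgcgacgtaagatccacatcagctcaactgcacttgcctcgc
The capitals mark the NKX2-1-type word CACTCAA, 48 to 42 bases before the start. An NKX2-1-type word occurred in 3.46% of promoter entries. A second FOXA1 region lay beyond the far end of the gene, 5.8 kb from it, at 37583349 to 37584249. The control libraries had heights of 3, 5 and 3 there, silenced replicates 1 and 2 both had 5, and silenced replicate 3 had no peak.

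FOXA2, on chromosome 20 from 22580998 to 22585490, had the least accessible window. The libraries held 1, 2 and 3 peaks in the silenced and 4, 1 and 0 in the control group. A median of 0.920% of the window was covered by peaks, which is the 11.6th percentile of all protein-coding genes. The single gene-end peak, in silenced replicate 3, had a height of 3 and a false discovery rate (FDR, the authors' adjusted p-value) of 0.116. The tallest peaks of the window, of height 5 (control replicate 1) and 6 (control replicate 2), lay at 22586606 to 22586987, near an end of the lncRNA gene LNCNEF and centred 1306 bases from the upper end of FOXA2. The other 8 regions were called once each, at heights of 2 or 3. Within 1 kb of its own ends FOXA2 thus had no peak that a second library called, while a limit of 2 kb takes in the pair of control peaks.

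GATA6, on chromosome 18 from 22169589 to 22202528 and on the plus strand, had a shared region over its start at 22169045 to 22170650, next to an end of the antisense gene GATA6-AS1. The heights were 34, 28 and 16 in the silenced and 29, 18 and 25 in the control libraries. The region stood at the 49.5th percentile of the shared regions. The ranks were 11.9%, 19.9% and 13.6% in the silenced libraries and 19.3%, 40.5% and 27.5% in the control libraries. The silenced libraries were nearer the top apart from silenced replicate 2, which fell just behind control replicate 1, so the groups overlapped. The mean rank of silenced cells was 15.1% ± 4.24 and that of control cells 29.1% ± 10.7 (SD, n = 3 each). By a two-sided exact permutation test the difference of -13.95 percentage points had p = 0.2, or 0.771 when adjusted over 9 tests. With 1 library left out the difference ran from -18.83 (without control replicate 1) to -8.27 percentage points (without control replicate 2). In the 4 libraries of like coverage (silenced replicates 1 and 2, control replicates 1 and 3) it was -7.50 (a choice made after the data were seen). In control replicate 2 the interval was 1606 bp wide with a height of 18, where the other libraries had a main interval of 389 to 1257 bp.

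The 250 bases before the GATA6 start (chr18:22169339-22169588, plus strand) are shown as the other start covered in all 6 libraries.
GATA6: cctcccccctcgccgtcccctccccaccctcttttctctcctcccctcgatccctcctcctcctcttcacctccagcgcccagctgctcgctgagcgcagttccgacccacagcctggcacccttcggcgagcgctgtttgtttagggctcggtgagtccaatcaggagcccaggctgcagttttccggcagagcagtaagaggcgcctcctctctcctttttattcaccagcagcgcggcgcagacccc
They hold none of the motif words. The rest of the GATA6 window was sparse. Of its 28 other regions, 25 were called once and 3 in a pair of libraries, and heights over 6 were reached by 1 of them, a peak of height 11 in control replicate 2 at 22170723 to 22170922, directly after the start region. At the far end of the gene a single peak of height 4 was called in control replicate 3.

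SFTPB encodes surfactant protein B, which spreads the surfactant film, and lies on chromosome 2 from 85657307 to 85668741 on the minus strand. RefSeq gives starts at 85668741 and 85668199. Over the 250 bases before the first, 1 library had a peak, silenced replicate 2 with a height of 6 and an FDR of 0.0308. The other gene-end peak, in silenced replicate 1 with a height of 5 and an FDR of 0.0379, lay from -971 to -697 bases relative to that start and did not overlap the former. No library had a peak over the 250 bases before the second start (chr2:85668200-85668449, minus strand), which are shown for contrast with NKX2-1, FOXA1 and GATA6.
SFTPB start 2: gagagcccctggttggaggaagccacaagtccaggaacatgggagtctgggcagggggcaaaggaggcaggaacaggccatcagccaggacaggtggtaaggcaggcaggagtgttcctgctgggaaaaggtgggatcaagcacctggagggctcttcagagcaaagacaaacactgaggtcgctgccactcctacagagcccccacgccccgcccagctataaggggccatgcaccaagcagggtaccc
They hold none of the motif words, while those before the first start hold the AP-1 word TGANTCA, present in 5.36% of entries. Inside the gene, a region at 85662848 to 85663350 was called in 5 libraries, at 8 and 19 (silenced replicates 1 and 2) and at 14, 17 and 15 (control) in height, and silenced replicate 3 lacked it. Whether it lies in an exon or an intron was not analysed here, since the gene table gives no exons.

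The strongest accessibility in the SFTPB window was remote from the gene. A region 19.7 kb from the span, at 85637281 to 85637994 and within the span of USP39, had heights of 28, 32 and 13 against 28, 31 and 24. Its ranks were 6.59%, 4.12% and 9.85% in the silenced and 6.96%, 7.39% and 9.84% in the control libraries. This placed it at the 81.8th percentile of the shared regions, the highest of the 15. A region 10.5 kb beyond the start, at 85678979 to 85679535 and near no gene end, had heights of 15, 23 and 7 against 17, 10 and 15. The last shared region, at 85648662 to 85649179 near an end of USP39, was weak, with heights of 5, 5 and 3 against 12, 4 and 6 and control replicate 1 above the rest.

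SFTPC encodes surfactant protein C, a membrane peptide made by alveolar type II cells, and lies on chromosome 8 from 22157383 to 22164479 between LGI3 and BMP1. Its window was dense, with 7, 8 and 7 peaks in the silenced and 7, 7 and 9 in the control libraries, the 94.6th percentile of protein-coding genes by peaks per 10 kb. None of the 4 shared regions lay inside the SFTPC span. A pair of them lay near ends of REEP4, at 22137206 to 22137711 (heights of 14, 12 and 6 against 9, 9 and 11) and at 22141046 to 22142121 (10, 12 and 8 against 17, 14 and 14). Silenced replicate 3 was the lowest in both. Another at 22178705 to 22179317 was near no gene end, with heights of 6, 7 and 3 against 10, 6 and 7. The last, at 22164531 to 22165486, began beyond the upper end of SFTPC and overlapped the lower end of BMP1. The heights of the last were 10, 10 and 5 against 7, 8 and 11, and it stood at the 19.1th percentile of the shared regions. At the lower end of SFTPC, beside LGI3, peaks were called in silenced replicate 3 (height 3) and control replicate 2 (height 6).

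Inside SFTPC a single region, at 22158435 to 22158727, was called. All 3 control libraries had it, with heights of 5, 7 and 6, and in the silenced group it was called in replicate 2 with a height of 3. Among peaks with a height of at least 4, and in lists of equal size, it was thus called in the control libraries only. In the full lists 0 of the 92 regions were exclusive to a group, that is, present in its 3 libraries and absent from the other 3. Over all merged regions of the full lists, 0.130% were exclusive to the silenced group and 0.200% to the control group. The shares over all regions under the height limit and in lists of equal size are not given here, so the filtered call has no background beside it.

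NAPSA lies on chromosome 19 from 50358477 to 50369302, on the minus strand, with NR1H2 and POLD1 beyond its start. At the start, a narrow region at 50369208 to 50369501 was called in 5 libraries, at 9 and 5 (silenced replicates 2 and 3) and at 7, 8 and 12 (control) in height. Silenced replicate 1 had no peak there. A second region centred 553 bases inside the gene, at 50368584 to 50368915, was called in all 6, with heights of 12, 8 and 5 against 6, 5 and 8. Silenced replicate 1, which lacked the first, had the highest value of the second. Another, at 50361201 to 50361714 within the gene, had heights of 10, 7 and 5 against 6, 6 and 10 and was near no gene end. Both of these shared regions were low in the list, and stood at the 17.0th and 22.4th percentiles of the shared regions. The region between NR1H2 and POLD1, at 50383863 to 50384766, had heights of 47, 48 and 20 against 56, 46 and 43 and was the tallest of all 7 windows. At the near end of NR1H2, a region at 50376111 to 50376590 had heights of 25, 29 and 13 against 32, 24 and 32, and its neighbour at 50376672 to 50377214 had 24, 19 and 10 against 18, 28 and 18. The second NAPSA start that RefSeq gives, at 50365639, had no peak in the 250 bases before it in any library.

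**Figure D2:**
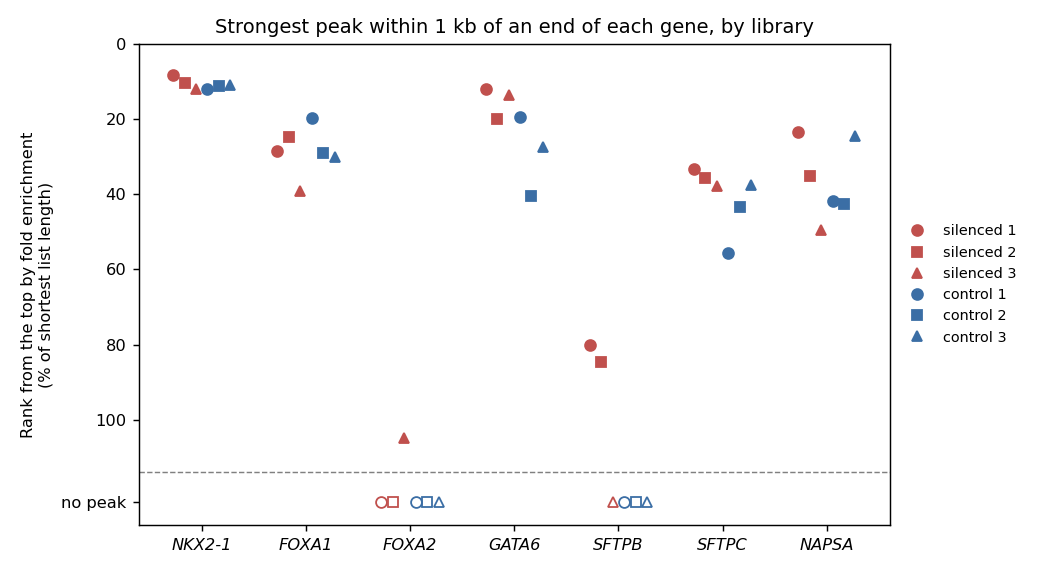
Rank from the top of its list, by fold enrichment and as a percentage of the shortest list length, of the strongest peak within 1 kb of an end of each gene. Each symbol is 1 library, the axis runs downwards, and open symbols mark libraries with no such peak. NKX2-1 lies between 8.18% and 12.1% in all 6 libraries, the other called genes scatter more widely, and FOXA2 and SFTPB are mostly without a peak.

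The lineage genes did not share a promoter type. RefSeq's promoter table matched 5 of the 7 genes (all but FOXA2 and SFTPC), with 8 entries. Of these, 2 had a peak in all 6 libraries (NKX2-1 start 1 and GATA6), 2 in 5 libraries (FOXA1 and NAPSA start 1), 1 in a single library and 3 in none. Accessibility of promoters generally follows their CpG content, so the ratio of observed to expected CpG was computed over the 250 bases before each start. It was 0.977 at FOXA1, 0.699 at GATA6, 0.614 at NKX2-1 start 1 and 0.520 at NAPSA start 1. It was 0.455 at NKX2-1 start 2, 0.162 at NAPSA start 2, and 0.130 and 0.0478 at the SFTPB starts. Thus the 4 entries called in 5 or 6 libraries had the 4 highest ratios. Over all 22198 entries, split by this ratio into 4 bins, 5.42% of the lowest bin and 74.5% of the highest had a peak in every library. FOXA1 belonged to the highest bin, while NKX2-1 and GATA6 lay in the second bin from the bottom (39.6%). By height the FOXA1 peak was below those of NKX2-1 and GATA6 in every library. By rank it was behind NKX2-1 in every library, but not behind GATA6. In control replicate 1 FOXA1 and GATA6 were about level (19.6% against 19.3%), and in control replicate 2 FOXA1 was ahead (29.0% against 40.5%).

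**Figure D3:**
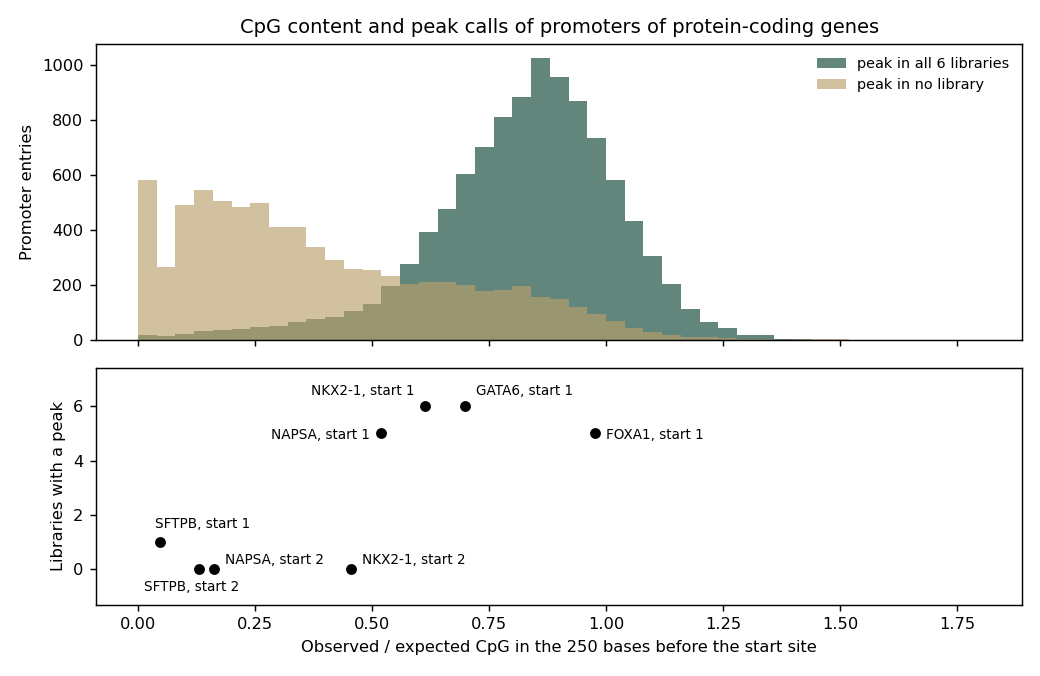
Upper panel, number of promoter entries of protein-coding genes by ratio of observed to expected CpG in the 250 bases before the start, for those with a peak in all 6 libraries and in none. Lower panel, the 8 entries of the lineage genes by the same ratio (x) and the number of libraries with a peak (y), where FOXA1, GATA6, NKX2-1 start 1 and NAPSA start 1 lie to the right of the 4 others.

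The other genes of the alveolar and airway programme gave context. Of 21 such genes, 7 had a gene-end peak in all 6 libraries (33.3%), 9 in some and 5 in none. SFTPD, the collectin surfactant protein D, was called in all 6, and HOPX, a homeodomain protein of alveolar type I cells, in none. Of 15 further endodermal and epithelial transcription factors, 6 were called in all 6 libraries, with SOX9 as the first listed, and 4 in none, with the paralogue FOXA3 as the first listed. Of 11 squamous and basal genes, 3 were called in all 6 libraries (SOX2, PITX1 and SFN) and 3 in none (KRT6A, DSC3 and TRIM29). TP63, the squamous master regulator, had a gene-end peak in 4 libraries and the basal keratin KRT5 in 1. Calls within this list thus ran from every library to none. Ends of a span miss internal promoters, such as that of the shorter TP63 isoforms. All 8 housekeeping genes had a gene-end peak in every library, and of 8 genes of unrelated tissues 0 did.

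**Figure D4:**
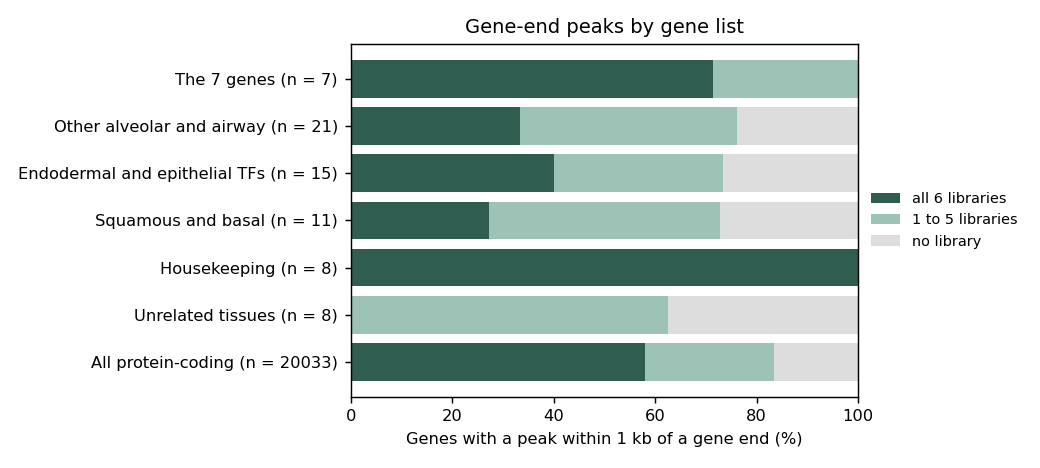
Share of genes of each list, in percent, with a gene-end peak (midpoint within 1 kb) in all 6 libraries, in 1 to 5 or in none, with the number of genes in brackets. The 7 lineage genes (71.4% in all 6) lie between the housekeeping genes (100%) and all protein-coding genes (58.0%), and the squamous list is at 27.3%.

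By the covered share of their windows, the genes were like quite different neighbours. GATA6 (median 3.25% over 6 libraries) was nearest to CDX2 and ABCA3 among the 63 other listed genes, and NKX2-1 (3.12%) to PITX1 and ABCA3. FOXA1 (3.48%) and SFTPB (3.52%) were both nearest to INS and AQP5. FOXA2 (0.920%) was nearest to PTPRC and SCGB3A2, genes with little accessibility here. SFTPC (5.64%) was nearest to the housekeeping genes PPIA and ACTB, and NAPSA (4.83%) to FOXA3 and SOX2. This share includes the flanks. The shared regions of the SFTPC window all lay outside its span, and the strongest of the NAPSA window lay at NR1H2 and POLD1. The likeness therefore compares windows, not the genes' own ends.

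The study's comparison asked whether silencing DLGAP1-AS2 altered accessibility, and at the lineage genes no difference passed a test. The 7 windows together held 38, 40 and 33 peaks in the silenced and 39, 26 and 35 in the control libraries, with control replicate 2 the lowest. The means were 37.0 ± 3.61 and 33.3 ± 6.66 (SD, n = 3 each), a difference within the spread (two-sided exact permutation test, p = 0.6). The smallest p that this test allows with 3 values a group is 0.1. Without control replicate 2 the difference was 0. Peaks with a height of at least 4 numbered 25, 28 and 20 against 23, 26 and 27, and their difference had the opposite sign. The length covered was 13.4, 13.5 and 9.28 kb against 13.7, 12.0 and 13.3 kb, with silenced replicate 3 the lowest (12.05 ± 2.41 and 12.99 ± 0.917, SD, n = 3 each, exact permutation p = 0.7). Without silenced replicate 3 that difference changed sign, to 0.456 kb. Within the gene spans alone, with no flank, the means were 3.09 kb in silenced and 4.12 kb in control libraries (exact permutation p = 0.1, the smallest possible, unadjusted). That was 1 of 13 alternative settings for the covered length, and the others had exact p-values of 0.3 or more. The same measure over all protein-coding genes is not given here. The part of coverage in these differences was not tested. No gene had more peaks, or fewer, in every library of one group than in every library of the other, where 1.56% and 1.67% of protein-coding genes did.

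**Figure D5:**
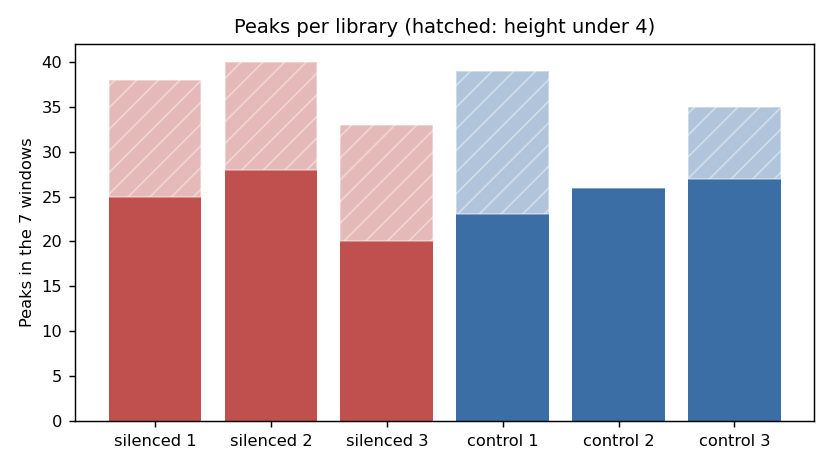
Number of peaks overlapping the windows of the 7 genes in each library, silenced in red and control in blue, with peaks of a height under 4 hatched. Control replicate 2 has 26 peaks, none of them under 4, and the other libraries have 33 to 40.

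The number of genes with a gene-end peak was 6 in each silenced and 5 in each control library, which separates the groups and gives the smallest p that 3 against 3 allows (exact permutation p = 0.1, or 0.771 once adjusted). It rests on the 3 weak peaks given above, each called in 1 silenced library: those of SFTPB in replicates 1 and 2 and that of FOXA2 in replicate 3. At the other 5 genes every library had a peak. Over all protein-coding genes, the share with a gene-end peak was 69.4%, 70.3% and 65.1% in the silenced and 70.3%, 67.1% and 69.9% in the control libraries, and those shares overlapped. At an FDR of at most 1e-05 the means were 4.0 and 3.67 genes (exact permutation p = 1). With a limit of 2 kb they were 6 and 5.67 genes (p = 1 by the exact test), and with heights of at least 4, or lists of equal size, 5.67 and 5 genes (exact p = 0.4), so the separation was lost under each of these.

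The rank of the strongest peak in the window could be compared at 6 genes, FOXA2 being left out because control replicate 3 had no peak there. At SFTPB, SFTPC and NAPSA that peak lay away from the gene's own ends, near or within neighbouring genes. At SFTPC it was not the same region in every library, so its rank does not follow a single site. The differences (silenced minus control) other than that of GATA6 were -1.16 percentage points at NKX2-1, 4.60 at FOXA1, -1.21 at SFTPB, 2.54 at SFTPC and 0.611 at NAPSA, with exact permutation p-values of 0.3 to 0.8. At FOXA1 it shrank to 0.470 without silenced replicate 3 and to 1.29 without control replicate 1, and it grew to 7.63 without silenced replicate 2. At NKX2-1 it was -0.127 without silenced replicate 1 and -2.08 without silenced replicate 3. At SFTPC the difference fell to 1.29 when silenced replicate 1 was left out and to 1.33 when control replicate 1 was, and leaving out control replicate 2 gave 4.15. For the strongest peak at the gene's own end, a choice added after the data were seen, the differences were -9.96 at SFTPC and -0.281 at NAPSA. At none of the 6 genes were the groups separate, whereas 5.41% of protein-coding genes had a strongest peak nearer the top in every silenced library and 4.58% in every control library.

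Ranks were also compared at each of the 15 shared regions, in a fit over all 37284 regions called in every library. None of the 15 differed at an adjusted p under 0.05 (limma, Benjamini-Hochberg; the smallest was 0.963), and 0% of all regions did. An unadjusted p under 0.05 was reached by 1 of the 15, the GATA6 start region, and by 4.68% of all regions. At the GATA6 start the difference in normal score was 0.75 ± 0.32 (SE; limma, Benjamini-Hochberg adjusted p = 0.963), with scores of 0.55, 0.05 and 0.44 in the silenced and 0.09, -0.95 and -0.35 in the control libraries. The largest difference of the 15, 0.85 ± 0.47 (SE), was that of the region inside NAPSA near its start (limma, Benjamini-Hochberg adjusted p = 0.963). The median difference over the 15 regions was 0.09, with 9 higher and 6 lower in silenced cells, and over all regions it was 0.01.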

How the data were processed

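ATAC-seq of NCI-H1703 cells was deposited as 1 peak list per library, 3 silenced and 3 control. Per the file headers, a peak has coordinates, a fold enrichment (a ratio), a p-value, an FDR and a pileup signal (the height), all computed by the authors. The height is read here as a number of overlapping fragments, which the unknown settings leave unchecked. Per the submitters' processing notes, the build was GRCh38 and the tools Trimmomatic 0.36, Bowtie2 2.2.6, Picard 2.8.2, MACS2 2.1.1 and bedtools 2.25.0. Their settings, the handling of duplicate and mitochondrial reads and any shift for the transposase are not given in the sources used here. Heights are on the scale of each list, so lists were compared by calls and ranks. Depth in reads is unknown.

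Autosomal, X and Y peaks were used. Gene spans came from RefSeq GRCh38.p14. Lists shared under 0.1% of identical intervals in any pair. Per-library values were compared by two-sided exact permutation, with Benjamini-Hochberg adjustment over 9 tests, in Python 3.11.15. Ranks at shared regions, turned to normal scores, were fitted in limma 3.58.1 with a mean-dependent prior, after a test on simulated data. The genes, gene lists and motifs were chosen with earlier results of these data known. All 7 genes are named, with the shared regions of their windows and those nearest their ends, and from each list the first gene called in every library and in none. KRT5, TP63, PITX1, SFN, DSC3, TRIM29 and the regions called in 1 to 5 libraries that lie away from gene ends were chosen for mention with their values in view. Replicate numbers do not pair libraries by the labels.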

Additional observations from a re-analysis of the deposited data

How the results depend on the processing

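Differences are silenced minus control. The difference in peaks in the 7 windows, 3.67 in the main comparison, became -2 for peaks with an FDR up to 1e-05, -0.333 in lists of equal size and -1 for heights of 4 or more, and ran from 0 (without control replicate 2) to 6.5 (without control replicate 1) when 1 library was left out. That in covered length, -0.934 kb, ran from -1.65 to 0.456 when 1 library was left out, reversing without silenced replicate 3, and was -2.05 at the FDR limit and -1.99 with a 50 kb flank. The difference in genes with a gene-end peak kept its sign under all 13 alternatives and shrank from 1 to 0.333 at the FDR limit and with 2 kb, and to 0.667 in equal lists and at heights of 4 or more. Leaving out libraries or blocking by replicate could not change it, since every library of a group had the same count. Ranks of the strongest peak reversed at NKX2-1 by height (0.311 percentage points), at SFTPC and NAPSA as a share of the full list (-1.05 and -0.696) and, for the strongest peak at the gene's own end, a choice added after the data were seen, to -9.96 and -0.281. With 1 library left out they ran from -2.08 to -0.127 at NKX2-1, from 1.29 to 4.15 at SFTPC, from -2.71 (without silenced replicate 3) to 0.157 (without silenced replicate 2) at SFTPB and from -0.777 (without control replicate 1) to 1.90 (without control replicate 2) at NAPSA. Those at FOXA1 and GATA6 kept their sign under all 12. At both genes the replicate block and the own-end peak, which was the strongest of the window, could only repeat the main value. For SFTPB the own-end alternative gave no value, since no control library had such a peak. Regions called in 1 group only were 0 in the full lists. Control-only regions numbered 1 in lists of equal size, 1 at a height of at least 4 and 1 with a 50 kb flank, and 0 to 1 with 1 library left out. Silenced-only regions numbered 0 to 2, the 2 appearing without silenced replicate 3. The shares over all merged regions under these alternatives are not given here. The rank fit called 0 of the 15 regions under all 9 of its alternatives. Taking the replicate number as a pairing (replicate block) cannot alter a difference of means, for example 3.67 peaks (exact sign-flip p = 1, smallest possible 0.25). It changed no call in the rank fit. The deviations of same-numbered libraries correlated at -0.00829 to 0.00238, and those of differently numbered libraries at -0.00814 to 0.00865. How large a correlation pairing would give is not known, so these values cannot decide whether libraries were handled together. What in single libraries reverses a sign was not tested. Unknown depth limits every absent call, above all in silenced replicate 3, which had the lowest background coverage. Absent weak peaks are limited above all in control replicate 2, whose list held few peaks under a height of 4.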
